A study of Homo sapiens with 6 samples.

Results

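This account covers the wells of an siRNA screen that held SUM149PT cells exposed to eicosapentaenoic acid (EPA), each compared with the negative control siRNA OTP3 under the same exposure. Members were all wells of the 2 siRNA libraries, chosen by plate annotation alone: 939 of the 1152 wells of the screen, of which 779 carried kinome and 160 GPCR siRNAs, together against 926 genes. SUM149PT is an established cell line grown from an inflammatory breast cancer of the triple-negative type. In the EPA group, 3 replicates numbered 4 to 6, cells were reverse-transfected with 45 nM siRNA, left for 48 h and then given 50 µM EPA for 72 h. The untreated group, 3 replicates numbered 1 to 3, had the same transfection and no EPA. No vehicle is named for it, and no source used here says whether the replicates were separate cultures, and the p-values below therefore reflect the spread among these columns, possibly only technical. The screen had 1 cell line, and no RNA or protein was measured, so neither the knockdown of a target nor the identity of the cells could be checked from the values. The screen was run to look for a target that could be combined with EPA against the tumour cells.

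EPA is a long-chain omega-3 fatty acid that cells take up, build into membrane phospholipids and convert, through cyclooxygenases and lipoxygenases, into signalling lipids. Some G protein-coupled receptors (GPCRs) are activated by such fatty acids and their products. An siRNA guides the cleavage of a matching messenger RNA, so that less of the encoded protein is made. The readout was the fluorescence of resazurin after living cells had reduced it, which rises with the number of cells and with their metabolic activity and cannot tell these apart.

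In each plate and column the mean of the blank wells was subtracted and the rest divided by the mean of the OTP3 wells, so that OTP3 stands at 100%. In untreated columns OTP3 wells read 45464 ± 1298.5 units above the blank (SD, n = 3). With EPA they read 21086 ± 2930, and 46.4% of the signal was left (SE 3.80). A two-sided exact permutation test gave p = 0.1, which no split of 3 and 3 columns can undercut. Signals under 3 SD of the blank wells were set to that floor, which lay between 1.59% and 3.46% of OTP3 with EPA. TOX, the positive control siRNA, had a median of -0.282% ± 0.735 of OTP3 with EPA (SD, n = 3), and all 24 of its wells were called lower.

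The signal left with EPA depended on where a well lay. OTP3 wells of plate column 2 stood at 301% ± 44.5 of the plate's OTP3 mean in row 1 and at 79.3% ± 5.95 in row 9 (SD, n = 3 replicates). OTP3 wells of column 4 stood at 190% ± 21.7 in row 1 and at 33.7% ± 9.09 in row 9. Wells of the same reagent thus differed several-fold over the plate. Over all rows OTP3 averaged 135% ± 1.81 in column 2 and 71.2% ± 3.09 in column 4, against 113% ± 0.455 and 87.8% ± 0.477 untreated. The median library well took the same course, at 143% ± 4.13 in row 1, 24.9% ± 1.06 in row 9 and 106% ± 2.93 in row 16. Row was taken into account by dividing each well by a row factor, the level of the control wells of that row relative to the plate, which ran from 0.577 in row 9 to 2.23 in row 1 with EPA. OTP3 lay in odd rows only, so the factors of even rows come from wells of cells alone. A value after this step is called row-matched.

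**Figure D1:**
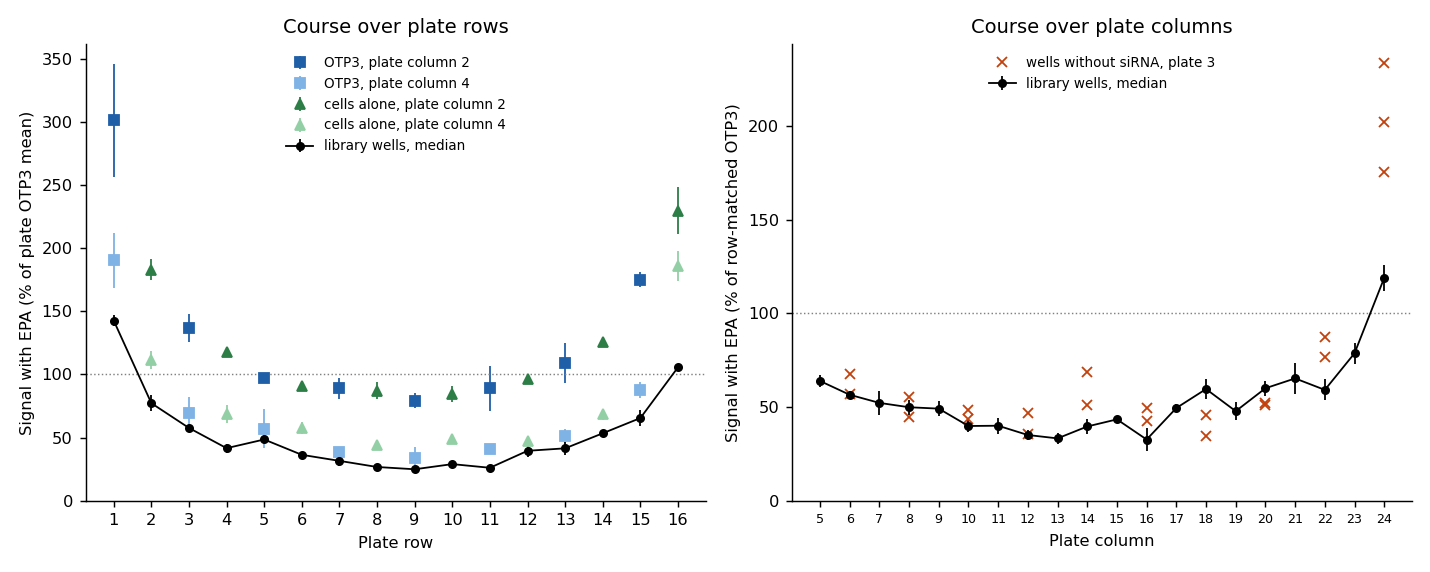
Left: signal with EPA as percent of the plate's OTP3 mean by plate row, for OTP3 wells and wells of cells alone in plate columns 2 and 4 (mean of 3 replicates, bars SD, 3 wells per point and replicate) and for the median library well (bars SD of the 3 replicate medians). Right: row-matched percent of OTP3 by plate column for the median library well (bars SD, n = 3) and, as crosses, the 21 wells without siRNA of plate 3 (mean of 3 replicates). Signals were lowest in the middle rows and highest in rows 1 and 16, and after row matching the median library well ran from 32.7% in column 16 to 119% in column 24.

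Most siRNAs left less signal than OTP3. Against the OTP3 mean of the plate, 666 library wells were lower (70.9% of 939) and 102 higher (10.9%) at an adjusted p under 0.05, the threshold for every call here. Rows 1 and 16, with 120 library wells, held 60 of the 102. After row matching 641 wells were lower (68.3%) and 51 higher (5.43%), and none of the 51 lay in rows 1 and 16. Of the 102 wells higher than the plate's OTP3, 77 were not higher after row matching, and 28 of these were lower. The median library well stood at -0.99 on the row-matched log2 scale.

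Wells that the plate map marks as holding no siRNA, called wells without siRNA here, lay among the library wells and were set beside these counts. What else they held is not stated. They numbered 21, all on plate 3, at a median of 59.1% ± 2.85 of the plate's OTP3 with EPA and 100.4% ± 6.77 untreated (SD, n = 3). Row-matched, their median with EPA was -0.99, the same as that of the library, and the fit called 16 of the 21 lower. These 16 were among the 18 wells in columns 6 to 22, and the 3 wells in column 24 were called higher, at 0.81 to 1.17. OTP3 wells themselves, each left out of its own reference, split by column: 20 of 24 in column 4 were called lower and 22 of 24 in column 2 higher. With the controls of column 4 alone as reference, a choice made after seeing the data, 4 of the 21 wells without siRNA and 428 library wells were lower, and 148 library wells were higher. The 72 wells of cells alone, in columns 2 to 4, stood apart from these 21: their row-matched median with EPA was 99.8% ± 1.55 of OTP3, against 54.1% ± 7.44 (SD, n = 3), and 15 of them were lower and 20 higher. Some of the wells of cells alone set the row factors of even rows. A call against OTP3 with EPA was therefore also met by wells marked as without siRNA, and the part of position in any single call was not tested.

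**Figure D2:**
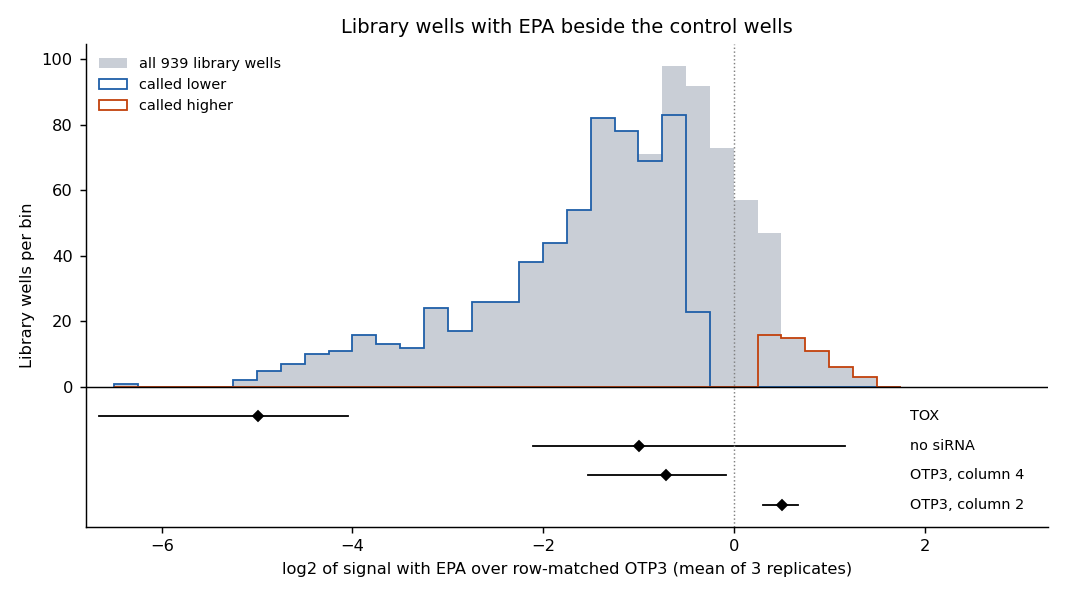
Histogram of the row-matched log2 signal with EPA over OTP3 for the 939 library wells, with calls lower (blue) and higher (orange) outlined. Lines under the axis give the lowest to highest well, and diamonds the median, of TOX, of wells without siRNA and of OTP3 wells of columns 4 and 2. The library median and the median of wells without siRNA are both at -0.99.

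A reference that also holds plate column was therefore set beside OTP3: the library wells of the same row and column, from a median polish of each plate, chosen after seeing the data. It centres the library at 0 and so gives a position among siRNAs, not against OTP3. By it 250 wells were lower (26.6%) and 226 higher (24.1%) with EPA. Of the 641 wells lower than row-matched OTP3, 249 were also lower by it, and of the 51 higher wells 38 were also higher. Against the wells without siRNA, 189 library wells lay below the lowest of them (-2.11) and 6 above the highest (1.17). The lowest one read 0.965% of row-matched OTP3 in replicate 5 but 61.9% and 41.1% in replicates 4 and 6. Below the next one, at -1.56, lay 292 library wells.

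The lowest wells above the floor held siRNAs against genes of vesicle transport, lipid and calcium signalling and several GPCRs and their partners. The 12 lowest were picked among wells called lower against both the plate's and the row-matched OTP3, with that sign in all 3 replicates. Their limma adjusted p in the row-matched fit, between 3.95e-06 and 5.83e-05, is thus part of that choice. All 12 were also lower than library wells of the same row and column, as were 26.6% of all wells. COPB2, a subunit of the COPI coat that carries vesicles from the Golgi to the endoplasmic reticulum, read 2.52%, 2.81% and 2.70% of row-matched OTP3 in replicates 4, 5 and 6. It stood at -5.22 on the log2 scale (SE 0.246). Without EPA it was also low, at 2.26% ± 0.161 (SD, n = 3), so this well was low with or without the fatty acid.

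Among the lipid kinases, PIK3C2A, a class II phosphoinositide 3-kinase, read 7.81%, 5.16% and 4.54% with EPA and 5.29% ± 1.31 without. DGKZ, a diacylglycerol kinase that turns diacylglycerol into phosphatidic acid, read 3.34%, 4.49% and 7.77% with EPA. Its untreated replicates spread from 2.94% to 16.9%, and the groups overlapped. CAMK2B, a calcium/calmodulin-dependent kinase, read 5.2%, 5.79% and 6.07%, and CAMKK1, which activates other calcium/calmodulin-dependent kinases, 5.54%, 6.16% and 6.16%. Both were close in all replicates with EPA, while CAMKK1 spread from 10.6% to 32.9% untreated. MYLK2, the myosin light chain kinase of skeletal muscle, read 2.95%, 12.9% and 3.94%, the widest spread of the 12 wells in these units. CSNK2B, the regulatory subunit of casein kinase 2, read 5.63%, 7.21% and 4.79%, against 12.2% ± 1.46 untreated.

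The other 5 of the 12 were 4 wells of the GPCR library, namely the receptors CRHR2 and CYSLTR2, the chemokine CXCL9 and ECE2, an endothelin-converting enzyme, and GRK1, a receptor kinase of the kinome library. CYSLTR2, a receptor for cysteinyl leukotrienes, which are made from fatty acids by a lipoxygenase, read 8.50%, 3.70% and 7.80% with EPA and 28.5% ± 1.20 untreated. These 5 wells differed from the wells above in standing at 25.3% to 46.4% of OTP3 without EPA. All 5 passed in the comparison of EPA with untreated wells, as did CAMKK1 and CSNK2B. COPB2, DGKZ, MYLK2, CAMK2B and PIK3C2A did not, with differences from -0.91 to 0.24. Against library wells of the same row and column, the difference of CAMK2B did pass (-1.80, limma adjusted p = 0.0118). That of CSNK2B did not (-1.03, limma adjusted p = 0.0667).

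A further 8 wells lay at the floor in all 3 replicates with EPA, so their values are bounds set by the blank wells. Of the cell-cycle and cytokine kinases, PLK1, which drives mitosis, read 3707 ± 143 units before blank subtraction, WEE1, which holds back entry into mitosis, 4113 ± 167, and JAK2, a kinase of cytokine receptors, 3647 ± 28.4 (SD, n = 3). Blank wells read 3888 ± 28.9, so these wells showed next to no reduced dye. FN3KRP, a ketosamine kinase, TRAT1, an adapter of the T-cell receptor, SIK2, a salt-inducible kinase, and GALR2, a galanin receptor, were at the floor as well. Of these 7, untreated values ran from 0.279% (PLK1) to 11.5% (GALR2) of row-matched OTP3. PI4K2A, which makes phosphatidylinositol 4-phosphate on endosomes and Golgi membranes, was unlike them: it read 43.2%, 38.6% and 53.4% untreated and 2.28%, 0.904% and 1.41% with EPA. The floor as a share of OTP3 was lower untreated (0.683% to 2.07%), so PLK1 and JAK2, near the blank in both groups, came out higher with EPA, at 1.17 and 1.35, and TOX had a median of 0.86.

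The next comparison took each well's row-matched position with EPA minus its position untreated, both against OTP3. Its background was not centred at 0: the median library well stood at 0.37, and 295 wells were called higher (31.4%) and 110 lower (11.7%). Of the library wells 900 were lower than OTP3 untreated and 3 higher. Of the 641 wells lower with EPA, 629 were also lower untreated, 109 had a lower position with EPA than without, and 102 a higher one. Most wells lower with EPA were thus also lower untreated, but so were most library wells, so this does not set them apart. In untreated columns, wells without siRNA in columns 6 to 22 stood at 88.7% ± 6.20 of the plate's OTP3 in row 13 and 103% ± 7.89 in row 15. The median library well of those rows, over all plates, stood at 41.4% and 54.3%. Whether the siRNAs themselves or the position of the wells lowered the untreated signal was not tested. Wells without siRNA had a median of -1.0 in this comparison, with 14 of 21 called lower and the 3 in column 24 higher. Against library wells of the same row and column, 135 differences were lower (14.4%) and 126 higher (13.4%).

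The 8 wells that dropped most with EPA, among those above the floor in all 6 columns, held siRNAs against hormone, endothelin and chemokine signalling, glycolysis, the cytoskeleton and TGF-beta family signalling. CRHR2, a receptor for corticotropin-releasing hormone and urocortins, read 27.4%, 47.2% and 34.7% of row-matched OTP3 untreated and 7.80%, 2.77% and 3.10% with EPA, a difference of -3.13 (SE 0.457). ECE2 read 51.8%, 54.9% and 32.6% untreated and 7.78%, 6.41% and 3.81% with EPA, a difference of -2.98 (SE 0.378). GRK1, a G protein-coupled receptor kinase, read 34.4%, 36.6% and 38.5% untreated and 7.10%, 3.34% and 6.47% with EPA, a difference of -2.77 (SE 0.367). In each of these wells the lowest untreated replicate was above the highest one with EPA, and large drops were what picked them.

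PFKL, the liver form of the glycolytic enzyme phosphofructokinase, had close replicates untreated, at 55.8%, 55.6% and 51.4%. With EPA it read 10.3%, 7.39% and 5.01%, a difference of -2.90 (SE 0.332). PSKH1, a serine kinase, read 47.4%, 53.7% and 40.6% untreated and 8.42%, 7.61% and 8.76% with EPA, a difference of -2.51 (SE 0.281). Its replicates with EPA were the closest of the 8. CXCL9, an interferon-induced chemokine that binds CXCR3, fell from 25.3% ± 2.49 to 4.46% ± 1.67, CDC42BPB, a kinase that acts below CDC42 on the actin cytoskeleton, from 42.4% ± 2.45 to 8.16% ± 5.5, and AMHR2, the type II receptor of anti-Müllerian hormone, from 62.4% ± 15.8 to 11.6% ± 4.68. Passing (limma adjusted p between 0.000285 and 0.00192) was required of these 8 wells. In all 8 the groups did not overlap, which picking the largest drops makes likely. All 8 differences were also lower against library wells of the same row and column, by -1.59 to -3.50, as were 14.4% of all differences.

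**Figure D3:**
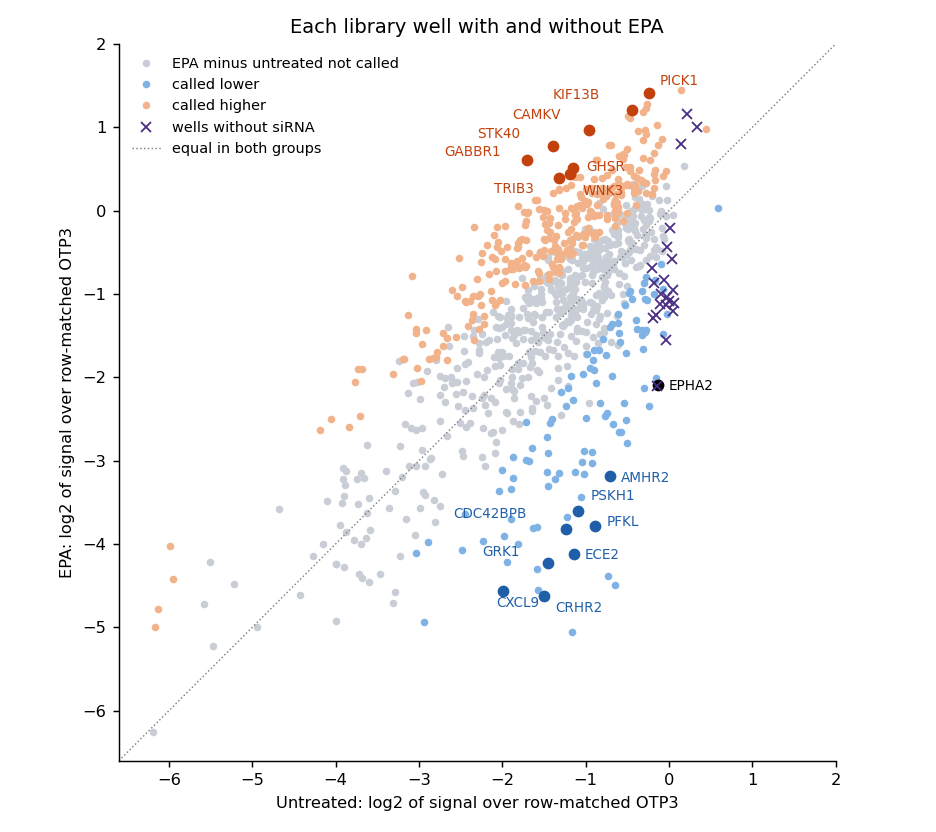
Row-matched log2 signal over OTP3 with EPA (vertical) against untreated (horizontal) for each of the 939 library wells, means of 3 replicates, coloured by the call on EPA minus untreated. Named are the 8 wells with the largest drop among those above the floor and lower than OTP3 with EPA (blue), the 8 with the largest gain among those higher than OTP3 with EPA (orange) and EPHA2 (black), and crosses are wells without siRNA. The named drops lie at -0.71 to -1.99 untreated and at -3.19 to -4.62 with EPA, and EPHA2 lies on the lowest well without siRNA.

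How far such drops go beyond wells without siRNA could be counted. The largest drop among those 21 wells was -1.97, in the well with the low reading in replicate 5, and 29 library wells dropped further. All 29 were also lower in position and in difference against library wells of the same row and column, beside 26.6% and 14.4% of all wells. That reference uses the same values that picked the 29, so it is no separate evidence. Of the 29, 8 were at the floor in at least 1 replicate with EPA, 8 came from the GPCR library and 14 lay on plate 3. Among all 939 library wells these numbers were 33, 160 and 299. Beside wells already named, the 29 included FLT1, a VEGF receptor, at 62.2% untreated and 4.96% ± 2.62 with EPA. The chemokine receptor CCR2, also among the 29, stood at 34.0% and 5.26% ± 2.50. MTOR, the kinase at the centre of nutrient signalling, stood at 49.2% and 10.7% ± 6.47, and the calcium-sensing receptor CASR at 33.2% and 7.33% ± 1.98 (SD, n = 3). These 4 genes were picked after their values were seen. With the next lowest well without siRNA as the mark, at -1.52, 46 library wells dropped further.

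Across both references, 74 wells were lower in position with EPA and in EPA minus untreated, with a median difference of -1.84 and a range from -3.89 to -0.66. They comprised 58 kinome and 16 GPCR siRNAs, on plates 1, 2 and 3 in numbers of 24, 21 and 29. None of them lay in column 24, and 7 lay in rows 1 and 16. All library wells comprised 779 kinome and 160 GPCR siRNAs, on plates 1, 2 and 3 in numbers of 320, 320 and 299. Column 24 held 45 of all library wells, and rows 1 and 16 held 120.

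EPHA2, a receptor tyrosine kinase of the Eph family that binds ephrins on neighbouring cells, was examined by name. Its well read 93.3%, 86.8% and 93.7% of row-matched OTP3 untreated, so the siRNA alone left the signal near that of the control. With EPA it read 17.9%, 26.2% and 27.7%, and the groups did not overlap. How many of all wells show no overlap is not given here. The difference was -1.95 (SE 0.234, limma adjusted p = 0.000345) against OTP3 and -2.12 against library wells of the same row and column. Against OTP3 it is nearly as large as the drop of the lowest well without siRNA (-1.97) and larger than those of the other 20. With the controls of column 4 alone as reference the difference was -1.64. EPHA2 is not among the 29 wells above, and its untreated level is the highest of the wells named here as dropping.

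The highest wells with EPA held siRNAs against scaffold proteins, kinases and GPCRs, and most lay near the last plate column. The 12 highest were picked among wells called higher against both the plate's and the row-matched OTP3, with that sign in all 3 replicates. The limma adjusted p of these 12 wells in the row-matched fit, between 1.28e-05 and 0.000217, is thus part of that choice. Of these, 11 lay in columns 20 to 24, which hold 233 of the 939 library wells, and 38 of all 51 higher wells lay there, 18 of them in column 24. The 3 wells without siRNA of column 24 had a median of 166% ± 22.3 of the plate's OTP3 with EPA (SD of the 3 replicate medians), and stood at 0.81 to 1.17 on the row-matched log2 scale. The median library well of that column stood at 119% ± 6.75.

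Of the wells in column 24, FPR1, a formyl peptide receptor, read 287%, 274% and 259% with EPA. PICK1, a PDZ protein that binds protein kinase C alpha, read 240%, 280% and 283%, and F2RL2, a thrombin-cleaved receptor, 230%, 224% and 226%. These 3 were above all 3 wells without siRNA on the log2 scale. WNK1, a kinase of ion transport, at 221% ± 22.6, PTPN5, a tyrosine phosphatase, at 205% ± 15.1, and GPR183, a receptor for oxysterols, at 199% ± 33.1, were within the range of the wells without siRNA. PTPN5 did not pass against library wells of the same row and column (0.39, adjusted p = 0.0675). Under a median polish that takes out plate column and keeps the library's level, FPR1, PICK1, WNK1, PTPN5 and GPR183 came out below OTP3, at -0.62 (PTPN5) to -0.00060 (GPR183) on the log2 scale.

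Outside column 24 were DLG1, a scaffold of cell polarity, at 191%, 315% and 236%, and KIF13B, a kinesin motor that binds DLG1, at 223%, 248% and 223%. EIF2AK2, the kinase PKR that double-stranded RNA activates, read 199%, 276% and 236%. MPZL1, a cell-surface glycoprotein, stood at 217% ± 27.0, BDKRB1, a bradykinin receptor, at 196% ± 10.1, and DYRK1A, a kinase of transcription and cell-cycle exit, at 195% ± 26.1 in column 17. Against library wells of the same row and column DLG1 was at 2.83, MPZL1 at 2.49 and DYRK1A at 2.08. Untreated, these 12 wells ranged from 72.0% (WNK1) to 136% (GPR183), so 10 of the 12 stood below OTP3 without EPA. Standing above it with EPA was what picked them. In EPA minus untreated all 12 were called higher against OTP3, as were 31.4% of all wells. Against library wells of the same row and column 5 of the 12 differences were higher, beside 13.4% of all wells.

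**Figure D4:**
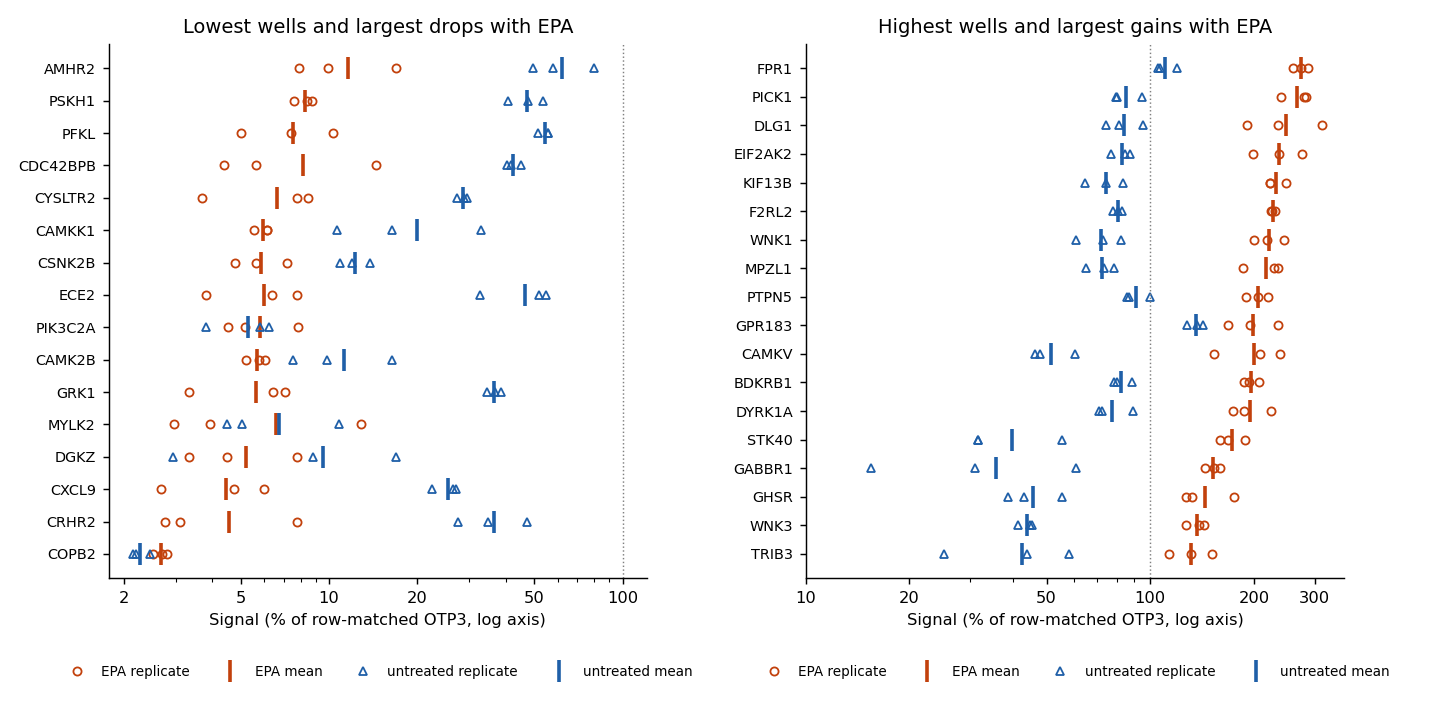
Percent of row-matched OTP3 on a log axis for the wells named by size, each replicate as an open symbol and the mean as a bar, with EPA (orange circles) and untreated (blue triangles). Left: the lowest wells and the largest drops. Right: the highest wells and the largest gains among wells higher than OTP3 with EPA. The replicates of PIK3C2A, MYLK2 and DGKZ overlap between the groups, and every well on the right is above its untreated values.

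Among wells that were also higher than row-matched OTP3 with EPA, the 8 that gained most were those of pseudokinases, GPCRs and ion-transport and scaffold proteins. Wells that did not pass as higher than OTP3 are not ranked here, and some of them gained more. STK40, a pseudokinase, read 55.5%, 31.6% and 31.6% of row-matched OTP3 untreated and 160%, 189% and 168% with EPA, a difference of 2.17 (SE 0.228). TRIB3, a pseudokinase induced by cell stress, read 57.9%, 44.0% and 25.3% untreated and 113%, 151% and 131% with EPA, a difference of 1.71 (SE 0.284). GABBR1, a subunit of the metabotropic receptor for gamma-aminobutyric acid, rose from untreated values of 30.9%, 15.5% and 60.7% to 160%, 153% and 144%, a difference of 2.31 (SE 0.404). WNK3, a relative of WNK1, rose from 44.7%, 41.4% and 45.2% to 138%, 143% and 127%, a difference of 1.64 (SE 0.146). These 4 wells lay in columns 6 to 20 and also passed against library wells of the same row and column, at 0.91 to 1.60.

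The other 4, CAMKV, another pseudokinase, GHSR, the ghrelin receptor, PICK1 and KIF13B, lay in columns 23 and 24. Their differences were 1.65 to 1.94 against OTP3 and 0.36 to 0.76 against library wells of the same row and column, where none passed (adjusted p from 0.0755 to 0.283). Of the 8, only PICK1 and KIF13B were also called higher than the plate's OTP3 mean without row matching. STK40, TRIB3, GABBR1, WNK3, CAMKV and GHSR stood at 95.6% (WNK3) to 114% (CAMKV) of that mean with EPA and were not called. In raw units the WNK3 well read 25242 ± 1773 untreated and 24798 ± 3382 with EPA, and the PICK1 well 43199 ± 3268 and 45459 ± 2175 (SD, n = 3). The raw signal of these wells with EPA was thus within the spread of the untreated one, while OTP3 kept 46.4% after blank subtraction.

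Across both references, 16 wells were higher in position with EPA and in EPA minus untreated. Of the 16, 10 lay in columns 20 to 24 and 2 in column 24, which hold 233 and 45 of all library wells. Beside STK40, GABBR1, TRIB3, WNK3, DLG1, MPZL1, DYRK1A, F2RL2 and GPR183 these were APPL1, an endosomal adapter, GIT2, a scaffold of focal adhesions, MAPK10, a JNK, MYO3B, a myosin with a kinase domain, PANK3, which makes coenzyme A from pantothenate, PRKCA, protein kinase C alpha, and RPRD1A, which binds RNA polymerase II. Their differences against OTP3 ran from 0.54 to 2.31 with a median of 1.41.

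The 13 siRNAs placed on 2 wells each show what row matching did to 1 reagent. Before it the wells of a pair differed by a median of 0.98 on the log2 scale with EPA, and by up to 2.40 (AVPR1A, a vasopressin receptor). After it the median difference was 0.33 and the largest 1.57, again AVPR1A, and 9 of 13 pairs were closer. BDKRB2, a bradykinin receptor, read 142% ± 13.6 of the plate's OTP3 in row 1 and 34.3% ± 9.48 in its other well, but 64.9% ± 13 and 53.7% ± 12.8 row-matched (SD, n = 3). The pair was thus above and below OTP3 before row matching and below it in both wells after. TAOK2, a kinase above p38, gave 41.4% ± 13.2 and 36.6% ± 1.31 row-matched and was lower with EPA in both wells and in both comparisons. AKT1 gave 16.1% ± 8.67 and 17.2% ± 12. In 9 of 13 pairs both wells were lower than row-matched OTP3, and in 10 of 13 they had the same call. With 68.3% of all wells lower, unrelated pairs would often match too, and their share is not given here. The median difference within pairs was 0.53 against library wells of the same row and column, and 0.55 in EPA minus untreated.

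Gene groups were read against the share of all library wells called, 68.3% lower and 5.43% higher with EPA against row-matched OTP3, and against the library median of -0.99. In EPA minus untreated the shares of all wells were 11.7% lower and 31.4% higher. All 15 wells of G-protein subunits were lower, with a median of -1.15. Heterotrimeric G proteins carry signals from GPCRs to enzymes such as adenylyl cyclases. GNAT2, the alpha subunit of cone transducin, was at -2.89, GNA13, another alpha subunit, at -2.31, GNAZ, of the inhibitory class, at -2.30 and GNAI1, which inhibits adenylyl cyclase, at -1.70. All 15 lay in rows 14 and 16 of plate 3, in even columns, and the wells without siRNA of rows 13 and 15 of that plate, also in even columns, were lower in 16 of 18 cases in columns 6 to 22, with a median of -1.06. Against library wells of the same row and column, 5 of the 15 were lower and 1 higher, beside 26.6% and 24.1% of all wells. In EPA minus untreated 4 were lower, namely GNAT2, GNAZ, GNA13 and GNAI1, at -1.87 to -1.19, and GNA14, of the Gq class, was higher at 1.06.

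**Figure D5:**
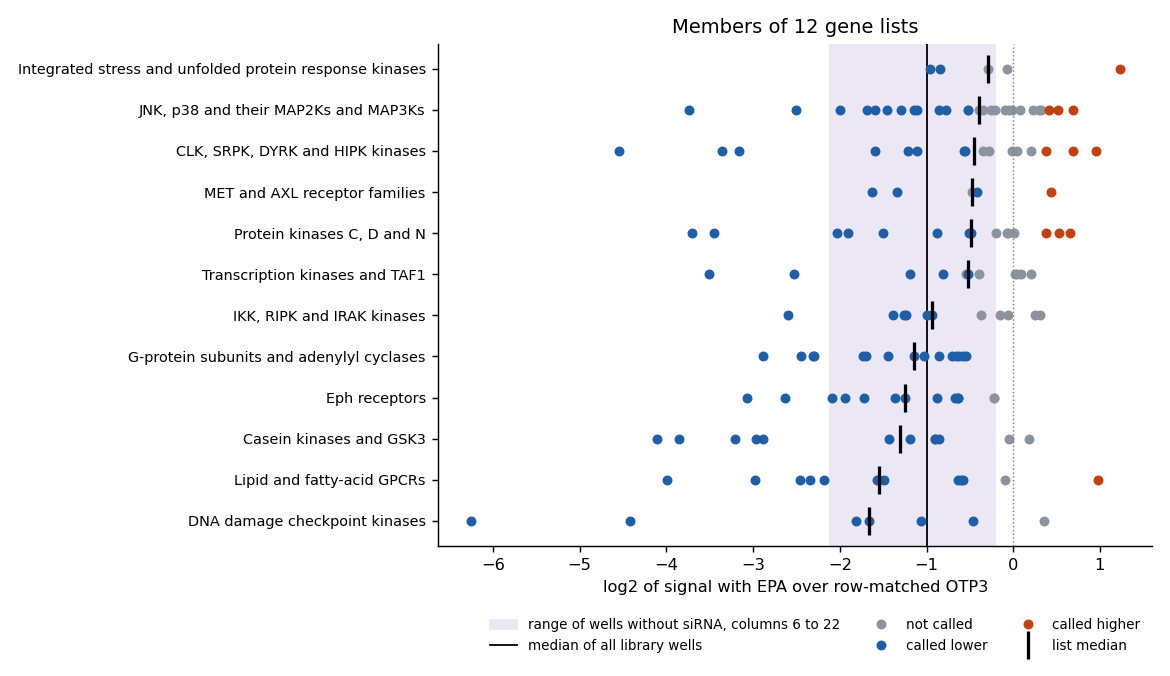
Row-matched log2 signal with EPA over OTP3 for the members of 12 gene lists, ordered by list median (black bar), with calls in colour. The line marks the library median of -0.99, and the shaded band runs from the lowest to the highest well without siRNA of columns 6 to 22, -2.11 to -0.21. Every list has members within the band, and DNA damage checkpoint kinases reach furthest below it.

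Of 13 lipid and fatty-acid GPCRs measured, 11 were lower and 1 higher, with a median of -1.55. After CYSLTR2 (-4.0) came the sphingosine 1-phosphate receptor S1PR2 at -2.98, the lysophosphatidic acid receptors LPAR3 at -2.46 and LPAR1 at -2.35, and S1PR1 at -2.18. By EPA minus untreated, 3 of the 13 were lower and 4 higher. Of the lower ones LPAR1 was nearest to OTP3 untreated (-0.24), with a difference of -2.11. LPAR3 was lower untreated (-3.70) than with EPA, a difference of 1.24. GPR183 was the member called higher, in column 24.

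Of 7 DNA damage checkpoint kinases 6 were lower, with a median of -1.67. CHEK1, which halts the cell cycle when replication stalls, had the lowest row-matched log2 value of all library wells, -6.26. Its replicates read 1.33%, 1.21% and 0.727% of row-matched OTP3. It was at the floor in 1 of these replicates and stood at -6.19 untreated. Some wells held at the floor, whose log2 values are bounds, read lower in percent, such as JAK2 at -1.44%. SMG1, a kinase of nonsense-mediated decay, was at -4.42, ATR, which activates CHEK1, at -1.67 and ATM, which responds to double-strand breaks, at -1.06. ATR and ATM were lower with EPA than untreated, both by -0.77, a size that wells without siRNA also reached, and 2 of the 7 were higher, among them SMG1 by 1.53. Against library wells of the same row and column, 3 of the 7 were lower with EPA and 1 higher, namely ATM (0.87, limma adjusted p = 0.0101). By that reference none of the 7 differences between EPA and untreated passed, with ATR at -0.39 and ATM at -0.15.

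Casein kinases and GSK3 had 10 of 12 members lower and none higher, with a median of -1.31. Of casein kinase 2, CSNK2B was at -4.11 and the catalytic subunit CSNK2A2 at -3.85. The catalytic subunit CSNK2A1 was only at -0.90, and higher than library wells of the same row and column (0.87, limma adjusted p = 0.0198). The casein kinase 1 members CSNK1G1 and CSNK1G3 stood at -3.20 and -2.89. By EPA minus untreated, 2 of the 12 were lower, CSNK1G3 (-1.97, from -0.92 untreated) and CSNK2B (-1.07), and 1 was higher. CSNK1G1 was at -3.66 untreated. Against library wells of the same row and column 7 of the 12 were lower, beside 26.6% of all wells. Of 13 Eph receptors 11 were lower, with a median of -1.25, and 10 of the 13 lay in row 16. EPHB2 was at -3.07, EPHB6 at -1.94 and EPHA7 at -1.72, beside EPHA2 at -2.09. In EPA minus untreated 5 were lower and 2 higher, and only EPHA2 among the 13 had a drop beyond 1 log2 unit. Against library wells of the same row and column, 2 of the 13 differences were lower and 1 higher, near the 14.4% and 13.4% of all wells.

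Other lists had fewer lower calls than the library. Of 5 integrated stress and unfolded protein response kinases, which slow translation or splice XBP1 under stress, 2 were lower and 1 higher. EIF2AK1, the haem-regulated kinase, was at -0.96, ERN1, the sensor IRE1, at -0.85 and EIF2AK2 at 1.23. EIF2AK4, the amino-acid sensor GCN2, was at -0.29 and did not pass (adjusted p = 0.132). Against library wells of the same row and column, 4 of the 5 were higher and none lower, beside 24.1% and 26.6% of all wells. Of 27 JNK, p38 and upstream kinases, 12 were lower and 3 higher, with a median of -0.39. The mixed-lineage kinases MAP3K9 and MAP3K10 were at -3.74 and -1.69, the p38 member MAPK12 at -2.50 and MAP3K14, the NF-kappa-B-inducing kinase, at -1.99. The higher ones were MAP3K20, MAPK10 and MAP3K3, at 0.69, 0.52 and 0.42. Of the 27, 9 were higher and 1 lower in EPA minus untreated, near the 31.4% higher of all wells.

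Of 11 transcription kinases and TAF1, 5 were lower and none higher. CDK11A and CDK11B, near-identical kinases of splicing and transcription, were at -3.51 and -2.53, and the siRNAs may share targets. The Mediator kinase CDK8 was at -1.19 and CDK12, which phosphorylates RNA polymerase II, at -0.52. Of 16 CLK, SRPK, DYRK and HIPK kinases, which act on splicing and transcription factors, 8 were lower and 3 higher, the widest spread of the lists with both. SRPK3 was at -4.55, with 2 of 3 replicates at the floor, HIPK3 at -3.36 and DYRK1B at -3.16, while its relative DYRK1A was at 0.95. DYRK1B and DYRK1A lay in the same row of plate 1, 2 columns apart, and also differed against library wells of the same row and column, at -2.81 and 2.08. SRPK3, HIPK3 and DYRK1B were lower in EPA minus untreated, by -2.98, -1.32 and -2.15, and 7 of the 16 were higher.

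Of 15 protein kinases C, D and N, many of which diacylglycerol or calcium activate, 8 were lower and 3 higher. PRKD2 was at -3.70, PKN3 at -3.45, PRKCH at -1.90 and PRKCQ at -1.51, and PRKCZ and PRKCA, both among the higher ones, at 0.53 and 0.37. In EPA minus untreated 10 of the 15 were higher, against 31.4% of all wells, and PRKD2 was lower (-1.80). Against library wells of the same row and column 2 differences were higher and 2 lower, beside 13.4% and 14.4% of all wells. Of 5 MET and AXL family receptors 3 were lower and 1 higher: MST1R, a relative of MET, was at -1.63, MERTK, a receptor for the clearance of dying cells, at -1.35 and AXL at -0.42, and MET, the hepatocyte growth factor receptor, at 0.43. MET read 137%, 146% and 124% with EPA and stood at -1.16 untreated. Its replicates did not overlap between the groups, a trait whose share over all wells is not given here. Of 11 IKK, RIPK and IRAK kinases, which pass signals to NF-kappa-B, 6 were lower and none higher. IKBKE was at -2.60, IRAK3, an inhibitor of the pathway, at -1.38, IRAK1 at -1.24 and CHUK at -1.0. IKBKE lay below the lowest well without siRNA and the other 3 within their range.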

How the data were processed

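Per the file headers, the deposited table holds the raw fluorescence intensity of each well, in 6 columns headed by group. Blank subtraction or normalization by the authors is not given in the sources used here. From these intensity values the mean blank of the plate and column was subtracted, a floor of 3 SD of the blank wells was set, and log2 of the ratio to the OTP3 mean was taken. The row factor averages the controls of a row over the 3 plates. OTP3 lay only in odd rows, so factors of even rows came from wells of cells alone in columns 2 and 4, relative to their own plate mean, which departs from the planned OTP3 factor. limma 3.58.1 in R 4.3.3 tested each well against 0 with the EPA columns, and EPA minus untreated with all 6 columns (trend and robust options, two-sided, Benjamini-Hochberg over 939 wells, threshold 0.05). The fit was tested on simulated data. The precision is limited by 3 replicates per group and the distance from the blank. Each column's header gives its group, and no sample number was taken from it.

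Named wells were the 12 lowest and 12 highest above the floor passing both fits, the 8 largest drops and gains passing both comparisons, the wells at the floor throughout, EPHA2, and 2 to 4 members of each list by moderated statistic. Lists were the 12 whose share of calls lay farthest from that of the library. Members, lists and tests were chosen with earlier results of these data known. Alternatives covered blank and floor, the row reference, variance model, threshold and left-out replicates. Symbols were updated through RefSeq identifiers (GRCh38.p14), which 935 of the 939 wells matched, 189 with a changed symbol. For ECE2 the transcript in the table is now assigned to a readthrough gene, and the table's name was kept. Reagent sequences were not used here. Some wells are not reported by name here.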

Additional observations from a re-analysis of the deposited data

Results flagged for a closer look

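For 16 wells the position against row-matched OTP3 differed between EPA-treated and untreated columns by the test of that difference. Lower with EPA, on the log2 scale, were CRHR2 (-3.13), ECE2 (-2.98), PFKL (-2.90), GRK1 (-2.77), CXCL9 (-2.58), CDC42BPB (-2.58), PSKH1 (-2.51) and AMHR2 (-2.48). Higher with EPA were GABBR1 (2.31), STK40 (2.17), CAMKV (1.94), TRIB3 (1.71), GHSR (1.66), PICK1 (1.66), KIF13B (1.65) and WNK3 (1.64). Wells marked as without siRNA, which enter no comparison of the screen, stood at a median of 59.1% of the plate's OTP3 with EPA and 100.4% untreated.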

How the results depend on the processing

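Among results across all wells, 109 values stayed within 1.5 times the reported count and 15 moved further, beside left-out replicates; the cause was not tested. Against the plate's OTP3, 43 wells were higher without the outermost rows. Against row-matched OTP3, library wells of the same row and column as reference gave 250 lower and 226 higher, a median polish 24 higher, column-4 controls 148 higher and a threshold of 0.01 31 higher. For EPA minus untreated, column-4 controls gave 72 lower and 470 higher, the threshold of 0.01 60 lower and 171 higher, no blank subtraction 464 higher, a median polish 174 higher and library wells as reference 126 higher. With column-4 controls 4 wells without siRNA and 0 of 48 OTP3 wells were lower by limma, also 0 at an unadjusted p under 0.05, and 24 OTP3 wells were higher. Under the median polish PICK1 (-0.0662), WNK1 (-0.37), PTPN5 (-0.62), GPR183 (-0.00060) and FPR1 (-0.016) turned below 0. Leaving out 1 replicate gave 42.7% to 48.5% of OTP3 signal left, 610 to 649 lower and 89 to 98 higher against the plate, 553 to 652 and 37 to 53 row-matched, and 76 to 113 and 213 to 321 for EPA minus untreated. No paired analysis was possible because the columns are numbered 1 to 6 through both groups. Signals near the blank limit how far a drop can be measured.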

Other observations

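Glycolytic and creatine kinases, chosen for description after their values were seen, had 24 wells measured. With EPA 17 were lower than row-matched OTP3 and none higher by limma, against 68.3% lower and 5.43% higher of all wells, so the share of lower wells was near that of the library. In EPA minus untreated 7 were lower and 6 higher, against 11.7% and 31.4% of all wells. Beside PFKL the lower ones included the creatine kinases CKB (-2.02), CKMT1B (-1.85) and CKM (-1.46), which buffer ATP and lay in 1 row of plate 1. The higher ones included PFKFB3 (1.88), which makes the activator of phosphofructokinase, and PFKP (1.33) and PFKM (1.14), the platelet and muscle forms of the enzyme whose liver form is PFKL.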
